A study of Chlamydomonas reinhardtii with 6 samples.

Results

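The genes described here are nuclear genes of photosynthesis in *Chlamydomonas reinhardtii*, a unicellular green alga. They encode subunits of photosystem I, photosystem II, cytochrome b6f and chloroplast ATP synthase, or plastocyanin, ferredoxin, ferredoxin-NADP reductase (FNR) or Calvin cycle enzymes. They are 34 genes, given as a list of gene identifiers by the function of their products, with no threshold on a measured value, out of 17741 genes in the count table. All 34 passed the filter on low counts that left 14136 genes for testing. The list gives the functions for the genes together. All 34 identifiers were found in the RefSeq gene table, but it pairs none of them with a symbol, so each gene is called by its identifier and no single role is given to it. For the same reason the label of the list could not be checked gene by gene.

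RNA-seq was done on 1 isolate that grew as cell groups and 1 isolate that grew as single cells, both from selection lines started with the wildtype strain cc1009. The cell group isolate came from a line kept with the predatory rotifer *Brachionus calyciflorus* and the single cell isolate from a line kept without it. Both were grown in chemostats for 10 days in medium with 80 µM nitrogen, and then for 5 days with rotifers added (rotifer), with the supply lowered to 40 µM nitrogen (low nitrogen) or without a change (control). RNA was pooled by treatment before sequencing, so that each of the 6 combinations of morphotype and treatment had 1 library and no replicate. The 3 treatments therefore stood as the replicates of a morphotype, their spread holds effects of the treatments, and what differs between the morphotypes may belong to these 2 isolates alone. The p-values measure only the spread between these libraries.

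Photosynthesis turns light into chemical energy on the thylakoid membranes of the chloroplast. Photosystem II takes electrons from water, the cytochrome b6f complex and plastocyanin pass them to photosystem I, and ferredoxin and FNR hand them on to make NADPH, while the ATP synthase uses the proton gradient that builds up. The Calvin cycle spends the ATP and NADPH to fix carbon dioxide, with Rubisco as the carboxylating enzyme. Many core subunits of these complexes are encoded in the chloroplast genome, and the genes described here are among those encoded in the nucleus. In green algae the transcripts of such genes commonly vary with light and with nutrient supply.

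Library totals ran from 5453218 to 9054895 counts on genes, with the fewest in rotifer for either morphotype. Levels are given as CPM, a gene's counts relative to the size of its library, with library sizes scaled by TMM factors (trimmed mean of M-values), which ran from 0.896 to 1.11. A floor of 3 counts, which covers counting error only, lay between 0.309 and 0.573 CPM, far below the lowest level of any of the 34 genes. The control library of single cells stood apart from its own morphotype. Its Euclidean distance over the tested genes on the log2 scale was 129 from rotifer and 115 from low nitrogen of single cells, which lay 87.2 from each other, while the distances among cell groups ran from 68.5 to 83.6. The fitted comparisons are therefore also given without it, while differences taken within control or against the control of single cells cannot be.

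The 34 genes together held 2.33% of the counts in rotifer, 1.33% in low nitrogen and 2.01% in control of cell groups, against 4.23% in rotifer, 2.68% in low nitrogen and 1.90% in control of single cells. The median CPM over the genes was 599.9 in rotifer, 297 in low nitrogen and 489.6 in control of cell groups, against 1039.6, 666 and 379.7 in the same treatments of single cells. The rotifer library of single cells was thus the richest in these transcripts, and cell groups in low nitrogen were the poorest. This order held for nearly every gene, with 32 of the 34 highest in rotifer of single cells and 30 of the 34 lowest in low nitrogen of cell groups. How many of all tested genes had the same order was not counted. The exceptions at the top were Cre11.g476750, highest in low nitrogen of single cells, and Cre12.g511900, highest in control of cell groups. Those at the bottom were Cre02.g120150, Cre04.g229300 and Cre12.g511900, lowest in control of single cells, and Cre08.g372450, lowest in control of cell groups. In bulk RNA a lower level in every cell and a smaller share of cells with the transcript cannot be told apart.

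**Figure D1:**
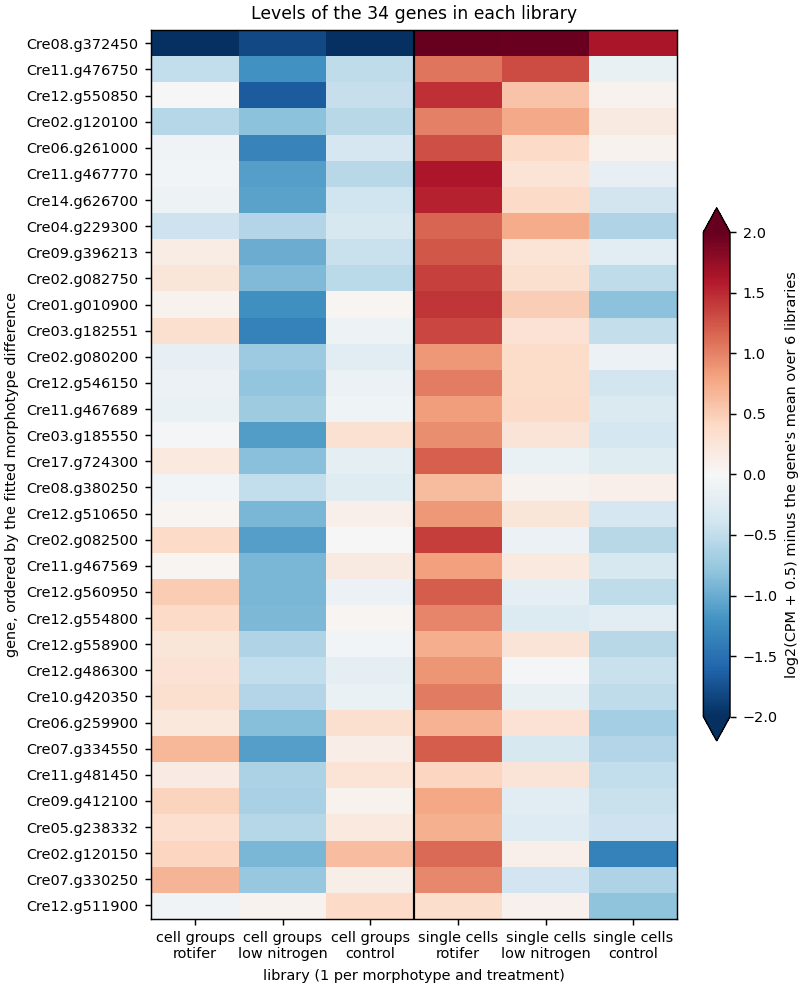
The color shows log2(CPM + 0.5) of each of the 34 genes (rows) in each of the 6 libraries (columns) as the difference from the gene's mean over the libraries, with genes ordered by the fitted difference between cell groups and single cells and the scale ending at 2 in both directions. The rotifer column of single cells is the reddest for 32 genes, that of cell groups in low nitrogen is the bluest for 30, and Cre08.g372450 in the top row parts the morphotypes in every treatment.

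The first comparison was of cell groups against single cells, fitted to all 6 libraries with the treatments as a covariate. Of the 34 genes, 31 had a negative log2 fold change, lower in cell groups, where 49.4% of all tested genes did, and the median over the 34 genes was -0.54 against 0.01 over all tested genes. The size of this median rested on single libraries. It was -0.99 without control of single cells and -1.03 without control of cell groups, where all 34 genes were negative, -0.36 without rotifer of single cells and -0.35 without rotifer of cell groups, and -0.25 without low nitrogen of single cells and -0.26 without low nitrogen of cell groups, where 26 were negative. The call reached only 1 gene, Cre08.g372450, which fell in cell groups, and none rose (edgeR quasi-likelihood test, Benjamini-Hochberg adjusted p under 0.05). That is 1 of 34 called lower, where 2.86% of the tested genes were called lower and 4.76% higher. An unadjusted p under 0.05 was reached by 10 of the 34, or 29.4%, all lower in cell groups, against 25.1% of all tested genes. The log2 fold changes ran from -4.33 to 0.25, with the middle of the list between -0.85 and -0.26. The count of calls depended on the control libraries. Without the control library of single cells 17 of the 34 genes were called, all lower in cell groups, where 12.8% of the tested genes were called in either direction. Without the control library of cell groups 20 were called, again all lower, where the tested genes gave 13.3%, and 17 genes were called in both fits. With treatment as a covariate the control library that is left adds nothing to the difference, so both fits describe rotifer and low nitrogen only and are not separate results. Without any 1 of the other 4 libraries only Cre08.g372450 was called, and of the tested genes 0.498% were called without rotifer of single cells, 1.74% without low nitrogen of single cells, 1.24% without rotifer of cell groups and 3.05% without low nitrogen of cell groups. DESeq2 called 6 of the 34 genes, all lower in cell groups, where it called 12.3% of the tested genes. These were Cre08.g372450, Cre02.g120100, Cre06.g261000, Cre11.g467770, Cre11.g476750 and Cre12.g550850. Limma called 2 of the 34, Cre08.g372450 and Cre02.g120100, and 8.81% of the tested genes, and edgeR without the covariate called the same 2 and 7.46%. Only Cre08.g372450 was called with DESeq2 size factors, where 7.40% of the tested genes were, and without the filter on low counts, where 6.91% were.

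**Figure D2:**
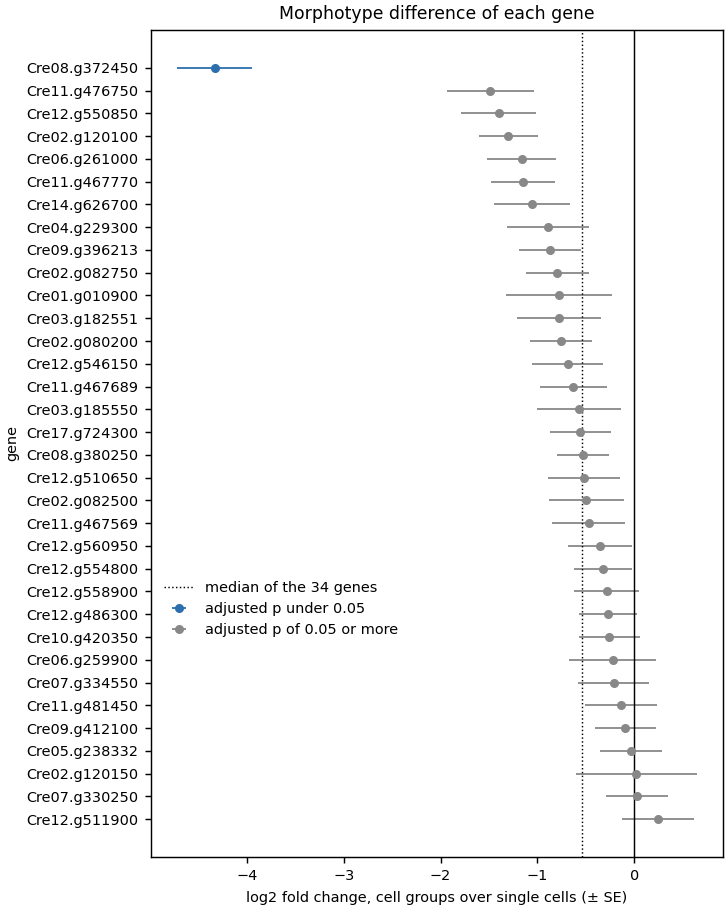
Points are the fitted log2 fold changes of cell groups over single cells for each of the 34 genes, with standard errors as bars, in blue for an adjusted p under 0.05, and the dotted line is their median of -0.54. Cre08.g372450 at -4.33 lies far below the other 33 genes, which run from -1.49 to 0.25.

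Cre08.g372450 stood out from the rest of the list. Its level was 53.1 CPM in rotifer, 71.2 in low nitrogen and 45.4 in control of cell groups, against 1848, 994 and 778 CPM in the same treatments of single cells. The lowest single cell library was thus more than 10 times the highest cell group library, and the groups did not overlap. The mean was 56.6 ± 13.2 CPM in cell groups and 1206 ± 566 CPM in single cells (SD over the 3 treatments). The log2 fold change was -4.33 (standard error 0.39, edgeR adjusted p = 0.00398), which is 20.2-fold lower in cell groups. Among all tested genes, 33 had a log2 fold change at least as negative, this gene included. The raw counts were 278, 592 and 341 in rotifer, low nitrogen and control of cell groups, so the transcript was low but well counted. The call was kept in each of the 12 fits tried, including those that left out 1 library each, with adjusted p between 2.88e-28 and 0.0443 and log2 fold changes between -4.63 and -3.94. The gene also ran against the list within cell groups, where it was the only one of the 34 with more in low nitrogen than in control, by 0.64 on the log2 scale.

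After Cre08.g372450 the most negative log2 fold changes belonged to Cre11.g476750 and Cre12.g550850, and neither passed the test. Cre11.g476750 had 261 CPM in rotifer, 158 in low nitrogen and 259.9 in control of cell groups, against 776, 909.8 and 331 CPM in single cells. Its log2 fold change was -1.49 (standard error 0.45, edgeR adjusted p = 0.0996). Cre12.g550850 had 764, 239 and 551 CPM in rotifer, low nitrogen and control of cell groups, against 2075, 1121 and 797 CPM in single cells, a log2 fold change of -1.40 (standard error 0.39, edgeR adjusted p = 0.0817). For both genes every cell group library lay below every single cell library, by the least in control. Without the control library of single cells both were called, with log2 fold changes of -2.05 and -1.84 (edgeR adjusted p = 0.00698 and 0.00757). Without low nitrogen of single cells they were not called, with log2 fold changes of -0.97 and -0.99 (edgeR adjusted p = 0.366 and 0.335), nor without low nitrogen of cell groups, at -0.98 and -1.01 (edgeR adjusted p = 0.373 and 0.356). Nor were they called without rotifer of single cells, at -1.44 and -1.39 (edgeR adjusted p = 0.349 and 0.327). The same held without rotifer of cell groups, at -1.43 and -1.38 (edgeR adjusted p = 0.350 and 0.338). The fits without a rotifer library called 0.498% (single cells left out) and 1.24% (cell groups left out) of all tested genes.

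For 7 of the 34 genes every cell group library lay below every single cell library, where 14.3% of the tested genes were lower without overlap and 16.3% higher, and no gene of the list was higher without overlap. Besides the 3 genes above these were Cre06.g261000, Cre02.g120100, Cre02.g080200 and Cre08.g380250. Cre06.g261000 had 1562 CPM in rotifer, 649 in low nitrogen and 1307 in control of cell groups, against 3998, 2144 and 1730.3 CPM in single cells (edgeR adjusted p = 0.0988). Cre08.g380250 showed the steadiest difference of the list, with 1180.2, 871 and 1032 CPM in rotifer, low nitrogen and control of cell groups, against 1906, 1280.5 and 1312 CPM in single cells. Its log2 fold change of -0.53 had a standard error of 0.27 and an edgeR adjusted p of 0.279, and its difference varied by only 0.35 on the log2 scale from treatment to treatment.

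At the other end of the list, 3 genes had fitted log2 fold changes at or above 0. Cre12.g511900 had 233 CPM in rotifer, 259 in low nitrogen and 320.0 in control of cell groups, against 313, 259.8 and 140.1 CPM in single cells (log2 fold change 0.25, standard error 0.37, edgeR adjusted p = 0.731). The morphotypes overlapped, and the positive sign came from control alone. Cre07.g330250 had 848, 313 and 571 CPM in cell groups, against 1029.7, 402 and 342 CPM in single cells, in the order rotifer, low nitrogen and control, and its log2 fold change was 0.03 (standard error 0.32, edgeR adjusted p = 0.969). Cre02.g120150 had 2120.1, 832 and 2405 CPM in cell groups, against 3444, 1681 and 613 CPM in single cells, in the same order. Its log2 fold change of 0.02 had the largest standard error of the list, 0.62 (edgeR adjusted p = 0.988), with control opposed to the other treatments. Without the control library of either morphotype the sign of all 3 turned negative.

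**Figure D3:**
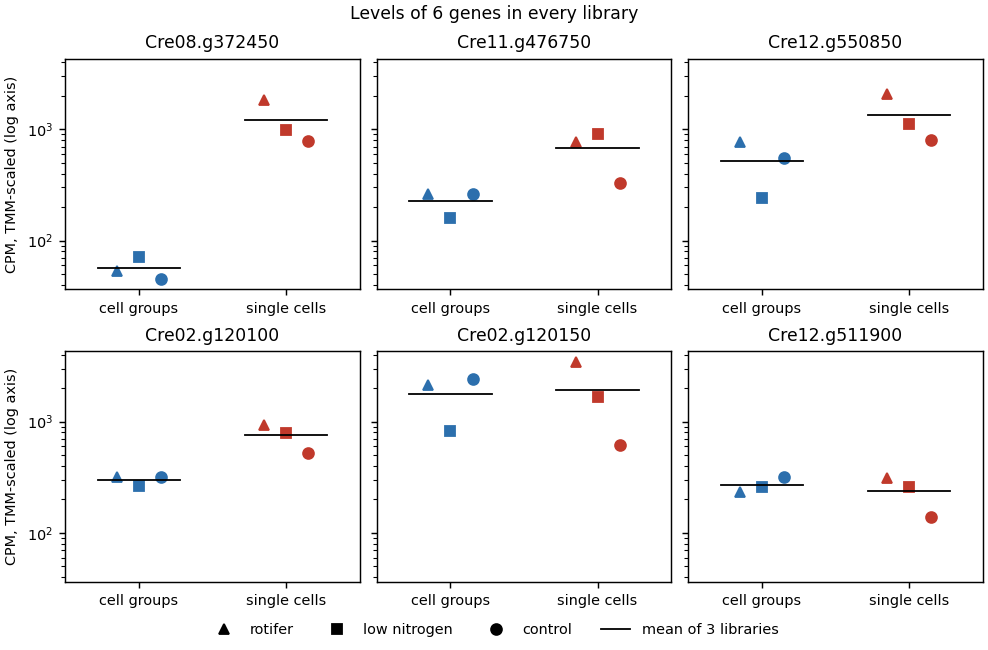
Levels of 6 of the genes in CPM on a log axis in each library of cell groups (blue) and single cells (red), with triangles for rotifer, squares for low nitrogen, circles for control and a line at the mean of the 3 libraries. Cre08.g372450 lies at 45.4 to 71.2 CPM in cell groups and at 778 to 1848 CPM in single cells, Cre02.g120100 is lower in cell groups without overlap, and Cre02.g120150 and Cre12.g511900 overlap.

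The difference between the morphotypes was then taken within each treatment, from 1 library each and without a test. In rotifer all 34 genes were lower in cell groups, with a median log2 difference of -0.96, and 16 were at least 2-fold lower, where 11.0% of the tested genes were. In low nitrogen all 34 were again lower, or 33 with library totals in place of TMM, with a median of -1.10, and 20 were at least 2-fold lower, where the tested genes gave 11.8%. In control most of the list had the opposite sign. There 23 genes were higher and 11 lower in cell groups, with a median of 0.33, and 3 genes, Cre06.g259900, Cre02.g120150 and Cre12.g511900, were at least 2-fold higher, against 12.9% of the tested genes. Only Cre08.g372450 was at least 2-fold lower, where 15.7% of the tested genes were. All these values of control rest on the single cell library that stood apart, and with library totals in place of TMM the median in control was 0.16, with 22 genes higher, against -0.17 over all tested genes. The medians over all tested genes were 0.04, 0.02 and -0.01 in rotifer, low nitrogen and control. Of all tested genes, 52.1%, 50.8% and 49.4% were higher in cell groups, in the same order. The 11 genes that were lower in cell groups in every treatment, where 23.1% of the tested genes were, comprised the 7 genes without overlap and Cre09.g396213, Cre02.g082750, Cre14.g626700 and Cre11.g467770. The last 4 differed less in control than in rotifer and low nitrogen. Cre14.g626700, for example, had 533 CPM in rotifer, 273 in low nitrogen and 435 in control of cell groups, against 1667, 749.6 and 446 CPM in single cells. At least a 2-fold lower level in cell groups in both rotifer and low nitrogen was seen for 14 genes, where 5.71% of the tested genes had it.

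**Figure D4:**
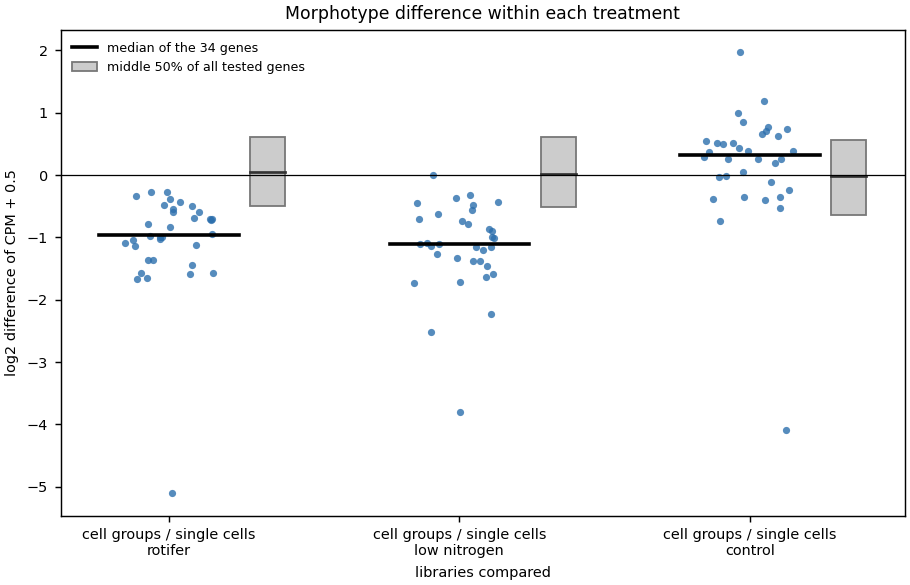
Each point is 1 of the 34 genes, and its height is the log2 difference of the cell group library from the single cell library in rotifer, low nitrogen or control, with the median of the 34 genes as a black line and the middle 50% of all tested genes as a grey box. The medians lie at -0.96 in rotifer, -1.10 in low nitrogen and 0.33 in control, and the lone point at the bottom of each column is Cre08.g372450.

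Rotifer was compared with control over all 6 libraries with morphotype as a covariate, to ask what the predator changed in these transcripts. All 34 genes had a positive log2 fold change, where 48.7% of all tested genes did, with a median of 0.77 against -0.02 over all tested genes. None of the 34 was called, and none of the tested genes was (0% in either direction, edgeR adjusted p under 0.05). The lowest edgeR adjusted p among the 34 was 0.663, and limma and DESeq2 called none of them either, although DESeq2 called 74 of all tested genes. An unadjusted p under 0.05 was reached by 8 of the 34 genes, or 23.5%, against 7.21% of all tested genes. These shares describe genes that share the same libraries and are not replicates. The log2 fold change was largest for Cre02.g082750 at 1.29 (standard error 0.40, edgeR adjusted p = 0.663). This gene had 121 CPM in rotifer and 70.6 CPM in control of cell groups, against 265 CPM in rotifer and 71.6 CPM in control of single cells. Cre12.g560950 had 764 CPM in rotifer and 495 CPM in control of cell groups, against 1251 CPM in rotifer and 377 CPM in control of single cells. Cre11.g467770 had 213 CPM in rotifer and 151 CPM in control of cell groups, against 681 CPM in rotifer and 198 CPM in control of single cells. In all 3 genes the gap was wider in single cells.

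The smallest log2 fold changes of rotifer over control were 0.31 for Cre12.g511900, 0.33 for Cre11.g481450 and 0.36 for Cre03.g185550. In these genes the rotifer level in cell groups was the lower one. Cre11.g481450 had 599 CPM in rotifer and 650.5 CPM in control of cell groups, against 722 CPM in rotifer and 382 CPM in control of single cells. Cre03.g185550 had 339.9 CPM in rotifer and 428 CPM in control of cell groups, against 654 CPM in rotifer and 271 CPM in control of single cells. Without the control library of single cells the sign of all 3 turned negative. That fit leaves the control library of cell groups alone, so it is not separate from the values within cell groups.

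Within the morphotypes the rotifer values differed in size. In cell groups 24 genes were higher and 10 lower in rotifer than in control, with a median log2 difference of 0.24, and 0 were at least 2-fold higher or lower, where 4.34% of the tested genes were higher and 3.64% lower by as much. In single cells all 34 were higher, with a median of 1.36, and 30 were at least 2-fold higher, where 11.0% of the tested genes were. The 4 genes under 2-fold were Cre11.g481450, Cre02.g120100, Cre02.g080200 and Cre08.g380250. Of all tested genes, 50.5% were higher in rotifer in cell groups and 46.9% in single cells. In all, 24 genes were higher in both morphotypes, where 26.4% of the tested genes were, and 10 were lower in cell groups and higher in single cells, where 20.4% were. With 1 library per condition the difference between the morphotypes could not be tested. The control library of single cells enters every single cell value here, and without it the fitted median over the 34 genes was 0.22, with 22 genes positive. Without the control library of cell groups the median was 1.42, close to the 1.36 within single cells. The control side of that fit was the control library of single cells alone, which stood apart. Genes of the list and other tested genes were called in that fit, unlike in the fit to all 6 libraries. With 1 control library these calls are not a result for the list. Without the rotifer library of single cells the median was 0.54. The rotifer libraries were also the smallest of each morphotype, and the methods give them a larger share of unmapped reads and name potential contamination. The part of these in the result was not tested.

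Low nitrogen was compared with control in the same way, and thus with the same control libraries as rotifer. None of the 34 genes was called, 0 had an unadjusted p under 0.05, and the lowest edgeR adjusted p was 0.874. Limma and DESeq2 called none of them, although DESeq2 called 49 of all tested genes. By edgeR no tested gene was called (0% in either direction), and 5.77% of them had an unadjusted p under 0.05. The median log2 fold change of the 34 genes was -0.13 with 26 negative and 8 positive, against -0.01 over all tested genes. This small value stood for opposite values in the morphotypes. In cell groups 33 of the 34 genes were lower in low nitrogen, with a median log2 difference of -0.71, and 11 were at least 2-fold lower, where 4.40% of the tested genes were, and 0 at least 2-fold higher, where 6.40% were. In single cells 32 of the 34 were higher, with a median of 0.50, and 4 were at least 2-fold higher, where 8.43% of the tested genes were. Lower in cell groups and higher in single cells at once were 31 of the 34 genes, where 24.8% of the tested genes were, and 11 were so by at least 1.5-fold each way, where 2.57% were. Higher in both was 1 gene, where 25.4% of the tested genes were, and lower in both were 2, where 25.2% were. Each value comes from 1 library per condition and the 34 genes are not replicates, so the difference between the morphotypes was not tested. The fitted median followed the libraries. It was -0.71 without the control and -0.48 without the low-nitrogen library of single cells, and 0.51 without the control and 0.22 without low nitrogen of cell groups.

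The most negative fitted values were -0.52 for Cre07.g334550, -0.52 for Cre12.g554800 and -0.48 for Cre03.g185550. Cre07.g334550 had 171 CPM in low nitrogen and 399 CPM in control of cell groups, against 293 CPM in low nitrogen and 243 CPM in control of single cells (standard error 0.45, edgeR adjusted p = 0.891). Cre12.g554800 had 167 CPM in low nitrogen and 319.6 CPM in control of cell groups, against 257 CPM in low nitrogen and 266 CPM in control of single cells. It was 1 of 2 genes, with Cre08.g380250, that were lower in low nitrogen in both morphotypes. Cre03.g185550 had 158 CPM in low nitrogen and 428 CPM in control of cell groups, against 412 CPM in low nitrogen and 271 CPM in control of single cells. The level was lower in low nitrogen of cell groups for all 3, and of single cells only for Cre12.g554800.

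The most positive fitted values were 0.52 for Cre08.g372450, 0.44 for Cre04.g229300 and 0.36 for Cre11.g476750. Cre08.g372450 was the only gene higher in low nitrogen in both morphotypes, by 0.64 on the log2 scale in cell groups and by 0.35 in single cells (standard error of the fit 0.41, edgeR adjusted p = 0.889). Cre04.g229300 had 310.1 CPM in low nitrogen and 374 CPM in control of cell groups, against 780.4 CPM in low nitrogen and 306 CPM in control of single cells. Cre11.g476750 had 158 CPM in low nitrogen and 259.9 CPM in control of cell groups, against 909.8 CPM in low nitrogen and 331 CPM in control of single cells. For the last 2 genes the single cell libraries carried the positive sign. Cre02.g120150 was farthest apart, with log2 differences of low nitrogen over control of -1.53 in cell groups and 1.45 in single cells.

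Rotifer and low nitrogen were also set against each other, which leaves the control libraries out of the contrast. All 34 genes had a positive log2 fold change of rotifer over low nitrogen, where 50.5% of the tested genes did, with a median of 0.99 against 0.01 over all tested genes. None was called among the 34 or among all tested genes (0% in either direction), the lowest edgeR adjusted p among the 34 was 0.765, and limma and DESeq2 called none of the 34, although DESeq2 called 47 of all tested genes. An unadjusted p under 0.05 was reached by 15 of the 34, or 44.1%, against 6.10% of all tested genes. The 34 genes share the same libraries and are not replicates, so these shares are a description and not a test of the list. Here the medians of the morphotypes were close. The median log2 difference was 0.997 in cell groups, with 32 genes higher in rotifer and 17 at least 2-fold higher, where 6.0% of the tested genes were, and 0 at least 2-fold lower, where 6.70% were. In single cells it was 0.90, with 33 higher and 12 at least 2-fold higher, where 7.75% of the tested genes were, and 0 at least 2-fold lower, where 7.64% were. Higher in rotifer in both morphotypes were 31 genes, where 29.2% of the tested genes were. Lower in cell groups and higher in single cells were 2, where 18.3% of the tested genes were. Without the control library of single cells the fitted median was 0.99, with all 34 genes positive. It was 0.54 without the rotifer library of single cells. Since this comparison shares libraries with the comparisons with control, it is not independent of them.

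The largest log2 fold change of rotifer over low nitrogen was 1.62 for Cre07.g334550 (standard error 0.45, edgeR adjusted p = 0.765). It had 578 CPM in rotifer and 171 CPM in low nitrogen of cell groups, against 843 CPM in rotifer and 293 CPM in low nitrogen of single cells. Cre02.g082500 followed at 1.49, with 378 CPM in rotifer and 135 CPM in low nitrogen of cell groups, against 756 CPM in rotifer and 268 CPM in low nitrogen of single cells. Cre12.g560950, at 1.41, had 764 CPM in rotifer and 284 CPM in low nitrogen of cell groups, against 1251 CPM in rotifer and 474 CPM in low nitrogen of single cells. In these genes the rotifer library had more than 2 times the low-nitrogen level in each morphotype. The smallest values were 0.09 for Cre12.g511900, 0.16 for Cre11.g476750 and 0.26 for Cre02.g120100. Cre12.g511900 and Cre08.g372450 were lower in rotifer than in low nitrogen in cell groups, and Cre11.g476750 in single cells.

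**Figure D5:**
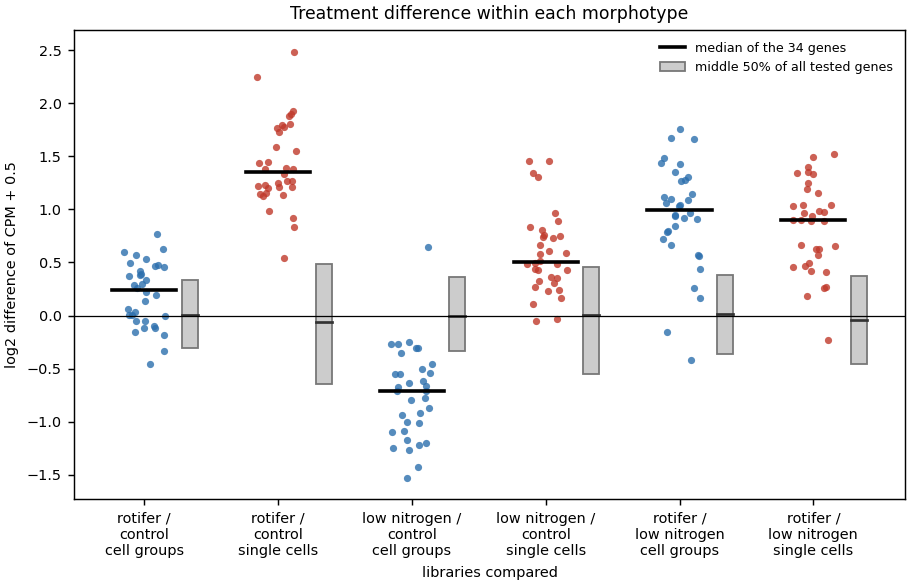
Each point is 1 of the 34 genes, and its height is the log2 difference between the named treatments within cell groups (blue) or single cells (red), with the median of the 34 genes as a black line and the middle 50% of all tested genes as a grey box. The medians are 0.24 in cell groups and 1.36 in single cells for rotifer over control, -0.71 and 0.50 in the same order for low nitrogen over control, and 0.997 and 0.90 for rotifer over low nitrogen.

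The 34 genes varied more over the treatments than the tested genes did at the median. Their median SD of log2(CPM + 0.5) over the 3 treatments was 0.54 in cell groups, where the median of all tested genes was 0.30, and 0.70 in single cells, where it was 0.42. The SD was larger in single cells for 29 of the 34 genes, where it was for 65.3% of the tested genes. This count rested on the control libraries. Over rotifer and low nitrogen alone, an alternative chosen after seeing the data, the SD was larger in single cells for 11 of the 34 genes and for 51.9% of the tested genes, and its median over the 34 genes was 0.70 in cell groups and 0.64 in single cells. Over all 3 treatments it ran from 0.14 for Cre04.g229300 to 0.90 for Cre07.g334550 in cell groups, and from 0.32 for Cre08.g380250 to 1.25 for Cre02.g120150 in single cells. Cre04.g229300, the steadiest gene in cell groups at 349, 310.1 and 374 CPM in rotifer, low nitrogen and control, spread from 306 to 1044 CPM in single cells.

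The list holds 1 pair of genes that are next to each other in the gene order of the RefSeq table, Cre02.g120100 and Cre02.g120150, and the members lie on 14 chromosomes. The levels of these 2 genes ran differently over the libraries. Cre02.g120100 had 315 CPM in rotifer, 263 in low nitrogen and 317 in control of cell groups, against 941, 787 and 526 CPM in single cells. It was lower in cell groups without overlap, with a log2 fold change of -1.30 (standard error 0.30), and its edgeR adjusted p of 0.0521 just missed the threshold. Limma, DESeq2 and the edgeR fit without the covariate called it. Its neighbor Cre02.g120150 overlapped between the morphotypes and had the largest SD over the treatments of the list in single cells, though not in cell groups. The counts of Cre02.g120150 over those of Cre02.g120100, which are not corrected for length and can be compared only between libraries, had a ratio of 6.73 in rotifer, 3.16 in low nitrogen and 7.59 in control of cell groups, against 3.66, 2.14 and 1.17 in single cells. Within each treatment the ratio was higher in cell groups, although the ranges of the morphotypes overlapped. How the counting treated reads that match more than 1 gene is not given in the sources used here, so the split of reads between these neighbors is uncertain.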

How the data were processed

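Per the methods and the labels, the authors checked read quality with FastQC, used HISAT2 and the version 5.0 *Chlamydomonas* genome for mapping, and counted reads per gene with HTSeq. The deposited counts are whole numbers without normalization. Tool versions and the strand setting are not given in the sources used here. The rotifer samples had a larger share of unmapped reads according to the methods, which name potential contamination for them. The deposited table of DESeq2-normalized log values and the table of the authors' own fold changes and adjusted p-values were not used, nor were the columns of averages.

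Counts were fitted over the whole table with the quasi-likelihood test of edgeR 4.0.16 in R 4.3.3, with TMM scaling. A gene was kept if at least 3 libraries had 1.30 CPM or more, which is 10 counts in the median library, and if its counts summed to 15 or more. P-values were Benjamini-Hochberg adjusted over all 14136 genes, and standard errors are the absolute log2 fold change over the square root of F. Alternatives were limma 3.58.1 on log2(CPM + 0.5), the DESeq2 1.42.0 Wald test, DESeq2 size factors, no filter, no covariate and leaving out each library. Log2 differences between 2 libraries used log2(CPM + 0.5), with a pseudocount of 1 as the alternative. The fits were also run on simulated counts with the same spread for all genes and a change in the compared factor alone. In the real libraries the treatments hold effects of their own, so that run gives no error rates for this design.

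The members were listed by function, but they and the lists were chosen with earlier results of these data known, so the choice was not free of the data. Genes named with values in the libraries are those called, the 3 at each end of the log2 fold changes in each comparison, the pair Cre02.g120100 and Cre02.g120150, and examples chosen after seeing the values (Cre06.g261000, Cre08.g380250, Cre14.g626700 and the genes at the ends of a range). Grouping by role, levels per coding length and a list of other genes of the pathways were planned but not used, since no source used here pairs the identifiers with names or gives coding lengths. Levels were therefore not compared between genes, except as a ratio of 2 neighboring genes followed from library to library. The RefSeq table (assembly Chlamydomonas_reinhardtii_v5.5) served for gene order only.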

Additional observations from a re-analysis of the deposited data

Results flagged for a closer look

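Low nitrogen against control had opposite directions in the morphotypes, from 1 library per condition, and the difference was not tested. The median log2 difference over the 34 genes was -0.71 in cell groups and 0.50 in single cells. At least 1.5-fold in opposite directions, always lower in cell groups and higher in single cells, were 11 genes of the 34, where 2.57% of the tested genes were. Cre02.g120150 had log2 differences of -1.53 in cell groups and 1.45 in single cells. Cre01.g010900 had -1.27 in cell groups and 1.31 in single cells. Cre03.g185550 had -1.43 and 0.61, Cre03.g182551 -1.25 and 0.76, Cre06.g259900 -1.17 and 0.97, and Cre12.g510650 -1.003 and 0.59, in the same order. Cre11.g481450 had -0.92 in cell groups and 0.74 in single cells, and Cre11.g476750 -0.72 in cell groups and 1.46 in single cells. Cre14.g626700 had -0.67 and 0.75, Cre12.g546150 -0.67 and 0.73, and Cre11.g467689 -0.61 and 0.67, again with cell groups first. The control library of single cells, which stood apart from the other libraries of its morphotype, enters every single cell value.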

How the results depend on the processing

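For cell groups against single cells, 1 gene was called lower by edgeR, 6 by DESeq2, 2 by limma, 2 without the covariate, and 1 to 20 when 1 library was left out (17 without control of single cells, 20 without control of cell groups). For rotifer against control, 0 to 15 genes were called higher when 1 library was left out (15 without control of cell groups), and the median of rotifer against low nitrogen then ran from 0.54 to 1.31. Signs that turned belonged to genes far from the threshold in the fit to all 6 libraries, but Cre02.g120150 was called lower without control of cell groups (edgeR adjusted p = 0.0460). For cell groups against single cells the log2 fold change of Cre02.g120150 was -0.0076 with DESeq2 size factors, -0.0077 with DESeq2 and -0.10 without the covariate, and that of Cre07.g330250 was -0.034 without the covariate. Leaving out 1 library gave -0.89 to 0.63 for Cre02.g120150, -0.36 to 0.22 for Cre07.g330250 and -0.25 to 0.60 for Cre12.g511900. For rotifer against control it gave -0.35 to 1.09 for Cre12.g511900, -0.26 to 1.11 for Cre11.g481450 and -0.43 to 1.41 for Cre03.g185550. For low nitrogen against control it gave -1.16 to 0.22 for Cre07.g334550, -1.32 to 0.51 for Cre03.g185550, -0.46 to 1.25 for Cre11.g476750 and -0.33 to 1.42 for Cre04.g229300. For rotifer against low nitrogen it gave -0.48 to 0.53 for Cre12.g511900 and -0.48 to 1.06 for Cre11.g476750, which was -0.043 without the covariate. For cell groups against single cells, leaving out 1 library takes its partner of the same treatment out of the difference as well. For a treatment comparison with control, leaving out 1 control library leaves the control of the other morphotype alone. The fitted median then lay close to the difference within that morphotype. For low nitrogen it was -0.71 without control of single cells, against -0.71 within cell groups. Without control of cell groups it was 0.51, against 0.50 within single cells. The calls of rotifer against control without control of cell groups came from a fit of this kind, with 1 control library. Genes outside the list were called in it as well, so these calls do not set the list apart. The causes of the remaining changes were not tested. Without the control libraries 11 genes in place of 29 had the larger SD in single cells. Levels per coding length were not run.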
